A study of Drosophila melanogaster with 2 samples.

Results

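The genes described here are the 8 homeotic selector (Hox) genes of Drosophila, lab, pb, Dfd, Scr, Antp, Ubx, abd-A and Abd-B, and the cofactor genes exd and hth. They were taken by gene symbol, and all 10 were found among the 17807 genes of the deposited table. The RNA came from Kc167, a Drosophila cell line of embryonic origin with features of blood cells. Both RNA-seq libraries, replicates 1 and 2, are of the same control group. The cells were grown at 25 °C in an insect cell medium and given 2% DMSO for 1 h at room temperature. There is no second condition, so the levels of these genes were described and compared with each other and with the remaining genes. The sources do not say whether the replicates came from separate cultures.

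Hox genes encode homeodomain transcription factors that give the segments of the body axis their identity. In Drosophila they lie in a split cluster, the Antennapedia complex (lab, pb, Dfd, Scr and Antp), which acts in the head and front thorax, and the bithorax complex (Ubx, abd-A and Abd-B), which acts in the rear thorax and abdomen. Their proteins bind DNA together with the homeodomain proteins Extradenticle (exd, the fly member of the PBC family, PBX in mammals) and Homothorax (hth, the fly MEIS protein), and Homothorax is known to bring Extradenticle into the nucleus. Polycomb and trithorax proteins keep Hox genes off or on after the early embryo has set their pattern.

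Replicate 1 held 33436865 read pairs counted on genes and replicate 2 held 31721648. A count of 0 allows a level of up to 0.0897 CPM (the count scaled by the library total) in replicate 1 and 0.0946 CPM in replicate 2, taking 3 counts as the limit, and this limit and the intervals below cover counting error only. All 10 hemocyte markers listed had 10 or more counts per library, srp, Hml and Col4a1 among them. Their summed level was 575 TPM in replicate 1 and 596 TPM in replicate 2. TPM is the count divided by gene length and scaled to the same total in every library. The mean deposited TPM of single hemocyte markers ran from 1.76 at NimC1 to 188 at He, and He, Col4a1 and vkg were the highest. Their order depends on the gene length used. With every exonic base counted once, Col4a1 was at 263 TPM, He at 218 and vkg at 192. Of 5 neuronal markers, 3 reached 10 counts per library, a minimum that 59.5% of protein-coding genes passed. The 5 neuronal markers summed to 1.53 and 1.65 TPM. Of 5 muscle markers, 3 reached it, with sums of 5.24 and 5.28 TPM that came mostly from Mef2. Of 5 germline markers, 4 reached it (vas, nanos, aub and bam), with sums of 154 and 157 TPM, and osk had 0 and 1 counts. These sums use the deposited gene length, which lowers the TPM of genes with many transcripts. With every exonic base counted once, the list medians were 79.7 TPM for hemocyte and 26.2 for germline markers. They were 0.176 TPM for neuronal and 0.161 for muscle markers.

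Among the 10 genes, exd and Dfd were detected well and the other 8 were at or near 0. Only these 2 had 10 or more counts per library, a minimum that 49.7% of all genes passed. A deposited TPM of at least 1 in each library was reached by 1 of the 8 Hox genes, Dfd, against 46.8% of all genes. The median deposited TPM of the 8 Hox genes was 0.00408, and that of all genes in the table was 0.646.

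**Figure D1:**
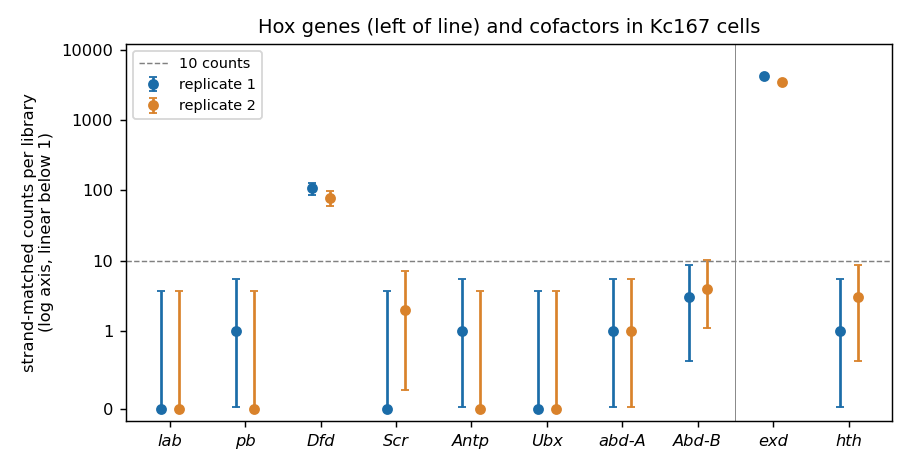
Strand-matched counts of the 8 Hox genes and the cofactors exd and hth in each library, on a log axis that is linear below 1, with exact 95% Poisson intervals as bars and a dashed line at 10 counts. The points of exd lie at 4159 and 3434 and those of Dfd at 106 and 77, and every other gene lies at 4 counts or fewer.

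Dfd, which specifies the maxillary and mandibular segments of the embryonic head, was the Hox gene with the most RNA in these cells. It lies on the plus strand of chromosome 3R from 6791836 to 6802428 in BDGP6.54, the assembly with dm6 coordinates, and has 1 annotated transcript. It had 106 counts in replicate 1 (95% Poisson interval from 86.8 to 128) and 77 in replicate 2 (60.8 to 96.2). Its deposited TPM was 3.50 in replicate 1 and 2.71 in replicate 2, or 3.10 ± 0.557 (SD, n = 2). The 2 intervals of counts overlap. At this level 42.1% of all genes, and 83.6% of the genes with 10 or more counts per library, stood at or above it, so Dfd RNA was in the low part of the detected range. In RNA from whole cultures, a few cells with much Dfd RNA and many cells with little cannot be told apart. Dfd took 93.4% of all counts on Hox genes, which came to 112 in replicate 1 and 84 in replicate 2.

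The other 4 Hox genes of the Antennapedia complex had 0 to 2 counts per library. lab, which acts in the intercalary segment of the head and in the midgut, lies on the minus strand from 6661427 to 6678590 and had 0 counts in both libraries. pb, which specifies the adult mouthparts, lies on the minus strand from 6707800 to 6742063 and had 1 count in replicate 1 and 0 in replicate 2. Neither gene could be told from absence of RNA at this depth.

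Scr, which acts in the labial segment and first thoracic segment, lies on the minus strand from 6823120 to 6849981 and had 0 counts in replicate 1 and 2 in replicate 2. Antp, which specifies the second thoracic segment, spans the minus strand from 6896253 to 6999228 and had 1 count in replicate 1 and 0 in replicate 2. With both libraries summed, the Poisson intervals of both genes per kilobase shared a common range with those of the other low genes.

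The 3 Hox genes of the bithorax complex were also near 0, with 0 to 4 counts per library. Ubx, which specifies the third thoracic segment and sets haltere against wing, lies on the minus strand from 16656623 to 16734426 and had 0 strand-matched counts in both libraries. abd-A, which acts in the front abdominal segments, lies on the minus strand from 16807214 to 16830049 and had 1 count in each library. Abd-B, which specifies the rear abdomen and genital segments, lies on the minus strand from 16927212 to 16972236 and had 3 counts in replicate 1 and 4 in replicate 2. Abd-B had the most counts among the 7 Hox genes other than Dfd, which together had 6 counts in replicate 1 and 7 in replicate 2. The 4 counts of Abd-B in replicate 2 exceed the 3 that a count of 0 allows.

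The cofactor genes differed from each other far beyond counting error. exd lies on the plus strand of the X chromosome from 15992468 to 15996509, with 4 annotated transcripts, and had 4159 counts in replicate 1 and 3434 in replicate 2, or 124 and 108 CPM. Its deposited TPM was 35.6 in replicate 1 and 31.4 in replicate 2, or 33.5 ± 3.01 (SD, n = 2). By deposited TPM it ranked 4174 among the 17807 genes, near the middle of the detected genes, whose median deposited TPM was 29.8. hth lies on the minus strand of chromosome 3R from 10507561 to 10639568 and had 1 count in replicate 1 and 3 in replicate 2. Its deposited TPM was 0.00385 and 0.0123, so RNA of the partner that brings Extradenticle into the nucleus was at the detection limit while exd RNA was well above it. With every annotated exonic base taken once as the gene length, called the exonic length here, exd stood 6691 times above hth in the mean of the libraries, with an interval from 2613 to 24557 from the counting error of the 4 hth counts. With the deposited length it stood 4142 times above hth. By exonic length exd ranked 2526 among all genes. Its mean was then 68.3 TPM, above the median of 34.9 for genes with 10 or more counts per library.

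In order of TPM, exd came first and Dfd second with every gene length tried, and their ranges over the replicates did not overlap with each other or with any other gene of the group. Dfd stood 112 times above Abd-B per exonic base in the mean of the libraries, with an interval from 54.1 to 277 from the counting error of Abd-B, and 387 times above it with the deposited length. The remaining 8 genes could not be ordered. The Poisson intervals of their summed counts per kilobase all shared a common range, both with the deposited length and with the exonic length, and their TPM in a library was at most 0.0128 with the deposited length. With the deposited length, the highest upper limit of these genes in 1 library was 0.0815 TPM, at lab.

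The distance between exd and Dfd depended on the gene length. The deposited length of a gene is the sum of the exon lengths of its annotated transcripts, so an exon shared by several transcripts counts once for each. This sum matched the deposited length of 8 of the 10 genes, and for Scr and Antp the deposited length was shorter than the sum over the annotation used here. The deposited length is 10546 bases for exd, against 3302 exonic bases, and 2739 bases for Dfd by every rule. Among the members with several transcripts the deposited length was from 1.43 times the exonic length, at lab, to 6.17 times, at Antp, which has 12 transcripts. With the exonic length, exd was at 72.9 TPM in replicate 1 and 63.7 in replicate 2, and Dfd was at 2.24 and 1.72. The ratio of exd to Dfd thereby went from 10.2 in replicate 1 and 11.6 in replicate 2 with the deposited length to 32.5 and 37.0. With the longest transcript it was 36.7 and 41.7. No length can lift the genes with 0 counts, and the highest TPM of the 8 low genes in a library was 0.0268 per exonic base.

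**Figure D2:**
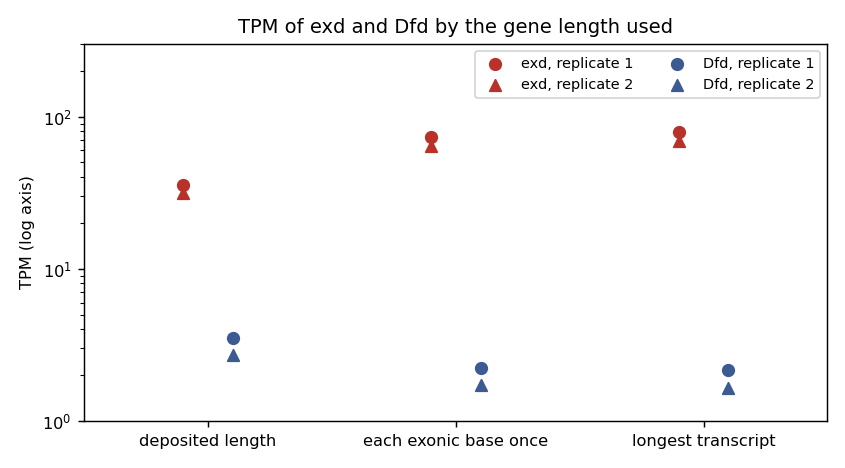
TPM of exd (red) and Dfd (blue) on a log axis with the deposited gene length, with the exonic length and with the longest annotated transcript, where circles are replicate 1 and triangles replicate 2. exd goes from 35.6 and 31.4 TPM to 72.9 and 63.7 and Dfd from 3.50 and 2.71 to 2.24 and 1.72 when the exonic length is used.

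The libraries differed at exd. In an exact binomial test of the 2 counts against the library totals, exd was 1.15 times higher in replicate 1, a log2 difference of 0.20 (95% interval from 0.13 to 0.27, Benjamini-Hochberg adjusted p = 4.55e-07 over 8846 genes). Such a difference was called at 134 genes, 1.51% of those tested, and at 0.497% in the direction of replicate 1. The test compares these libraries against counting error and no conditions. Of 4763 genes with 1000 or more counts per library, exd was 1 of 16 that differed by at least this much in either direction, and 9 of the 16 lie on the mitochondrial genome. The median absolute difference was 0.03 on the log2 scale. The well-counted genes on either side of exd were not called. ND-20 was at 4554 and 4180 counts, a log2 difference of 0.05 (exact binomial test, adjusted p = 0.655), and CG8939, which starts 506 bp beyond the end of exd on the same strand, was at 7264 and 6959 counts, a log2 difference of -0.01 (exact binomial test, adjusted p = 0.93). At Dfd the log2 difference was 0.39 (interval from -0.05 to 0.83, adjusted p = 0.573 in the exact binomial test), also with the higher value in replicate 1.

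Reads on the opposite strand were few at all of these genes. At exd they numbered 53 in replicate 1 and 33 in replicate 2, 1.12% of the reads of both strands (exact binomial interval from 0.897% to 1.38%). At Dfd they numbered 1 and 2, or 1.61% (0.334% to 4.64%). The median over genes with 10 or more reads of both strands together per library was 1.73%, and 13% of those genes had more opposite than matched reads. Of the 8 low genes, only Ubx had more than 1 opposite-strand read in a library, with 3 in replicate 1 and 1 in replicate 2 beside its 0 strand-matched counts. The annotated antisense genes that overlap members, lncRNA:CR45901, lncRNA:CR45904 and lncRNA:CR45905 at Scr, lncRNA:CR46267 at Abd-B and asRNA:CR44018 at hth, each had 0 strand-matched counts in both libraries.

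Within the complexes, almost all genes were at or near 0 counts. The Antennapedia complex, taken from lab to Antp, spans 338 kb and holds 44 genes of the table. Of these, 35 had 0 counts in both libraries, against 26.6% of all genes. That share covers 17807 genes, of which 13883 are protein-coding, so its mix of gene classes differs from that of the complex. No share at 0 was computed for protein-coding or non-coding genes alone. Non-coding genes made up 25 of the 44, with 22 at 0 in both libraries. These 22 include tRNA genes and the microRNAs mir-10 and mir-993, which poly(A) selection does not measure. Of the 19 protein-coding genes, 13 were at 0 in both libraries. Only Dfd and Ama had 10 or more counts in each. Ama, which encodes a secreted immunoglobulin-domain protein (Amalgam), lies between bcd and Dfd and had 296 counts in replicate 1 and 284 in replicate 2, or 5.46 and 5.59 TPM. The 4 homeobox genes here without a homeotic role are zen, zen2, bcd (which patterns the front of the embryo) and ftz (a pair-rule gene). They had 0 counts in replicate 1 and 1 count in replicate 2, at zen2. The 8 cuticle protein genes between lab and pb had 0 counts in both libraries.

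The bithorax complex, from Ubx to Abd-B, spans 316 kb and holds 15 genes of the table, of which 11 had 0 counts in both libraries and none reached 10. Non-coding genes made up 10 of the 15, with 9 at 0 in both libraries. Of the 5 protein-coding genes, 2 were at 0 in both libraries. Among the regulatory non-coding RNAs of the complex, lncRNA:bxd and lncRNA:iab8 had 0 counts in both libraries, and lncRNA:iab4 had 0 and 2. Poly(A) selection and the mapping of read pairs do not measure the microRNAs mir-iab-4 and mir-iab-8, which are listed at 0. Of the 24 protein-coding genes of both complexes together, 2 had 10 or more counts per library, or 8.33% against 59.5% of all protein-coding genes.

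Outside the complexes, well-counted genes lay close to those at 0. agt, 1326 bp from lab, had 2868 counts in replicate 1 and 2718 in replicate 2. modSP, 960 bp from the end of Ubx, had 947 and 993. Among the 10 nearest protein-coding genes on each side, 10 or more counts per library were found at 4 before lab and 5 after Antp, and at 8 before Ubx and 6 after Abd-B. Together these are 23 of 40 genes, or 57.5%, near the 59.5% of all protein-coding genes. The 4 genes nearest lab, agt, twr, CG1307 and Taf1, were all among those that passed. Beyond Antp the first 5 protein-coding genes had between 0 and 3 counts in a library, and dj, djl and Mst84B, testis genes, were among them.

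**Figure D3:**
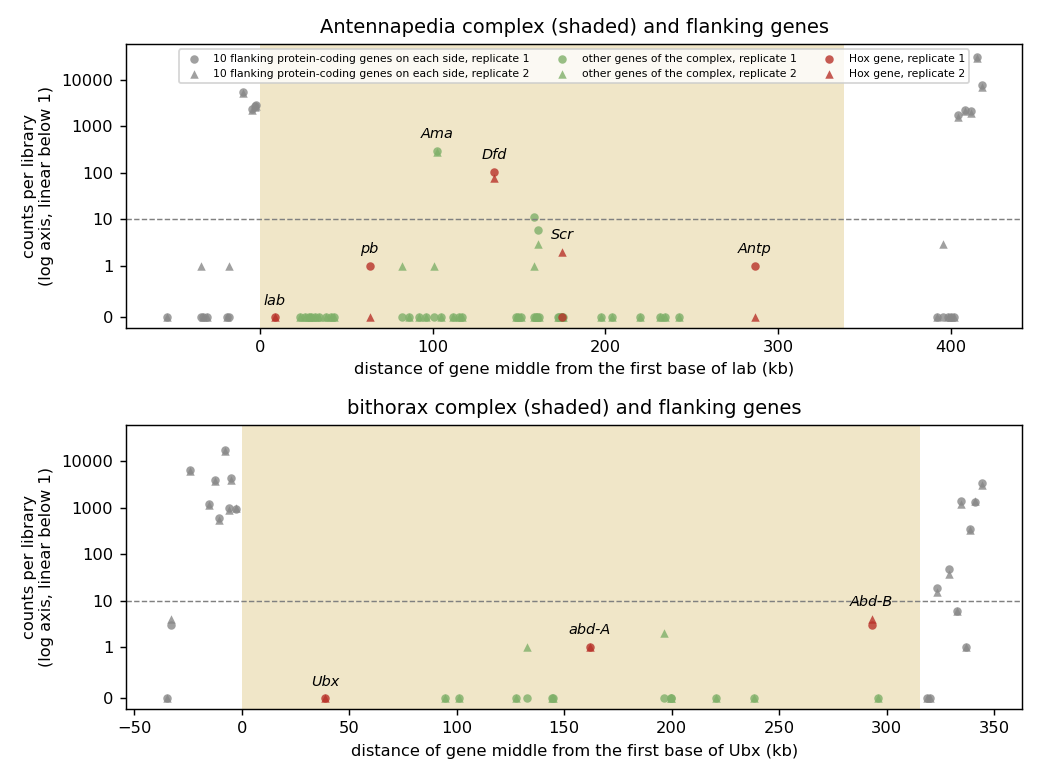
Counts in each library (circles, replicate 1; triangles, replicate 2) on a log axis that is linear below 1, by the distance of the middle of each gene from the first base of lab (top) or Ubx (bottom) in kilobases, with the complexes shaded, Hox genes in red, other genes of the complex in green and 10 flanking protein-coding genes on each side in grey. Within the shaded regions only Dfd and Ama lie above the dashed line at 10 counts in both libraries, while modSP, 960 bp from Ubx, lies at 947 and 993.

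Other genes of the Hox system were counted from lists, beside the 59.5% of all protein-coding genes that had 10 or more counts per library. Of 5 other homeobox genes of the TALE class, to which exd and hth belong, achi, vis and mirr had 10 or more counts per library, and ara and caup had 0 in both. achi stood at 76.3 ± 0.593 TPM per exonic base (SD, n = 2), close to exd at 68.3 ± 6.46 (SD, n = 2), and vis at 20.2 ± 0.594 (SD, n = 2). achi and vis are tandem copies of each other, so read pairs that match both were counted on neither and their levels are uncertain. mirr was at 0.739 TPM per exonic base.

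Of 6 genes whose proteins work beside Hox proteins, 2 reached the minimum of 10 counts per library, against 59.5% of all protein-coding genes. The 2 were the zinc-finger genes tio, with 371 counts in replicate 1 and 290 in replicate 2, and tsh, with 70 and 63. They are paralogs with roles in the trunk. disco, disco-r, en and slp1 had between 0 and 3 counts in a library. Of 10 genes known as Hox targets in the embryo or imaginal discs, 3 reached this minimum, against the same 59.5%. ct, a homeobox gene that Abd-B activates in the spiracles, had 4484 and 4215 counts. dpp, a signal that Ubx activates in the visceral mesoderm, had 52 and 40. rpr, a cell death gene that Dfd activates in the head, had 26 and 43. Dll, wg, fkh, salm, Con, ems and grn had between 0 and 6.

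Of 12 segmentation genes that set or accompany the early Hox pattern, hry (hairy) had 7847 counts in replicate 1 and 7611 in replicate 2, cad had 41 and 26 and gt had 14 and 10, and the other 9 stayed under 10 counts in at least 1 library. The listed genes that maintain Hox states were all detected. All 18 Polycomb and trithorax group genes listed passed the minimum of 10 counts per library, as did 59.5% of all protein-coding genes. Their median was 44.3 TPM per exonic base, against 0.55 for all genes and 34.9 for genes that passed the same minimum. Pc, whose protein reads the Polycomb histone mark, had 562 and 575 counts. E(z), the methyltransferase that writes that mark, had 2831 and 2796. On the other side, trx, the methyltransferase that gives the trithorax group its name, had 7839 and 7515 counts.

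**Figure D4:**
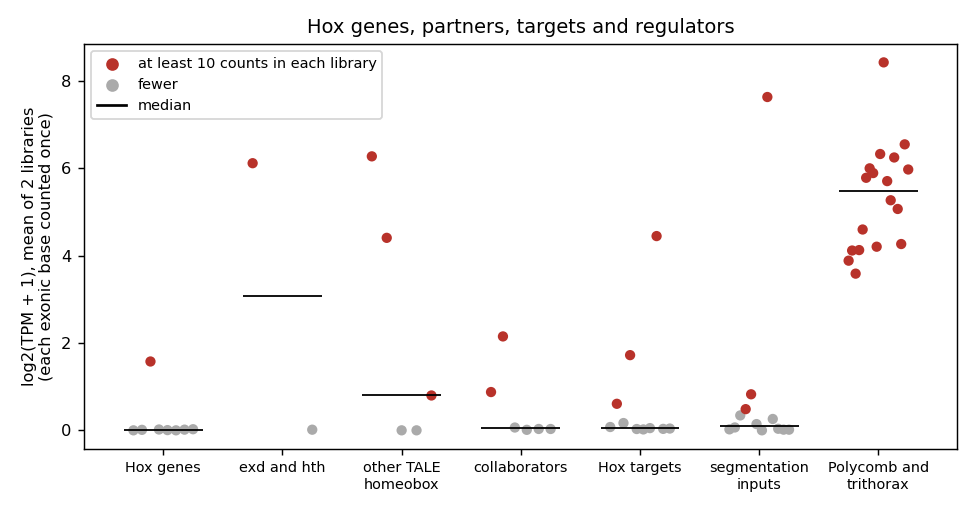
Mean log2(TPM + 1) of the 2 libraries per exonic base for each gene of the Hox system by list, with genes that had 10 or more counts per library in red, other genes in grey and list medians as lines. Of the Hox genes only Dfd is red, exd stands far above hth, and all 18 Polycomb and trithorax genes are red.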

How the data were processed

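Paired-end reads from a stranded poly(A) kit were aligned by the authors to dm6 with STAR 2.7.1a and counted per gene. The authors deposited these counts per library in 3 strand columns and, in 1 table, the strand-matched counts, gene lengths and TPM. Value columns with no sample or group numbered 0. Rows naming no gene, 21.6% of pairs in replicate 1 and 21.0% in replicate 2, were left out of library totals. Symbols matched 17710 genes. Positions and exonic lengths came from Ensembl release 115 (BDGP6.54) for 17710 genes.

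Libraries were compared by a two-sided exact binomial test with Benjamini-Hochberg adjustment over genes with 10 or more counts per library. Python 3.11.15 with scipy 1.17.1 was used. The test was checked on simulated counts with set changes and counting error only. That check cannot tell how the test behaves under further variation between libraries. Alternatives used edgeR 4.0.16 TMM factors, DESeq2 1.42.0 size factors, unstranded counts and other gene lengths. The genes named were the members, detected or empty genes of the lists, and genes inside the complexes. The members and lists were chosen with earlier results of these data known. Flanking genes, the neighbours of exd and the well-counted set were added after the data were seen. The planned ranking of homeobox genes by protein signature was not run.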

Additional observations from a re-analysis of the deposited data

Results flagged for a closer look

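Reads on the strand opposite to a gene are not part of that gene's level. At exd they came to 86 in both libraries, 53 in replicate 1 and 33 in replicate 2. They made up 1.12% of its reads, below the median of 1.73% over genes. At lncRNA:CR45593, which overlaps Ama on the other strand inside the Antennapedia complex, they came to 77, with 44 in replicate 1 and 33 in replicate 2, beside 0 and 1 strand-matched counts. The overlap lies on the strand of Ama, whose strand-matched counts of 296 and 284 exceed its unstranded counts of 252 and 255, where read pairs in overlapping genes are left out.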

How the results depend on the processing

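The TPM of exd was 68.3 with the exonic length, 73.9 with the longest transcript and 37.6 when rescaled without mitochondrial genes, a setting chosen after seeing the data, against 33.5 as deposited. Its level was 116 CPM without a length. Leaving out either replicate gave 31.4 to 35.6. The TPM of Dfd was 1.98 with the exonic length and 1.90 with the longest transcript, against 3.10 as deposited, with 2.71 to 3.50 when one replicate was left out. Its length is the same under these rules, so its change came from the scaling alone. The number of Hox genes detected was 3 at a minimum of 1 count in each library, which adds abd-A and Abd-B, and 0 at a minimum of 100, since Dfd had 77 counts in replicate 2. It was 1 with unstranded counts and with either replicate left out. The number with a TPM of at least 1 was 1 under all 5 alternatives tried. The difference at exd kept its direction and call under all 6 alternatives, with log2 values from 0.20 to 0.21 and adjusted p from 8.00e-08 to 6.73e-07 in the exact binomial test. At Dfd no alternative gave a call. Of the 8 genes near 0, the exonic length moved the TPM of 4 by more than 1 SD, the longest transcript that of 5 and unstranded counts that of 2. With 2 libraries, leaving one out moves a mean by less than 1 SD whatever the values, so it tells nothing of their stability. Unstranded counts lifted Ubx from 0 to 0.00839 TPM. No paired analysis was possible because the design holds a single group. Depth limits the order of the 8 low genes, and each SD comes from 2 values.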
